A study of Arabidopsis thaliana with 4 samples.

Results

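The transcripts of 4 *A. thaliana* genes for the internal handling of aluminum (Al) were followed under Al stress: *ALS3* (AT2G37330), *NIP1;2* (AT4G18910), *ALS1* (AT5G39040, also named ABCB27) and *STAR1* (AT1G67940, also named ABCI17). They were taken as a list of loci by their known function, chosen with earlier results of these data known, and are 4 of the 25455 loci on the array. Each of them has 1 probe, so that 4 of 43603 probes are concerned. The genes lie apart, on chromosomes 2, 4, 5 and 1 in the order named above.

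The microarray experiment used an *AvSAMS1* transformant (TF) and Col-0, the parental wild type, with 2 arrays per line. The *AvSAMS1* TF plants carry an S-adenosyl methionine synthetase gene of the grass *Andropogon virginicus* under a promoter of the cauliflower mosaic virus that is active in most tissues, and they represent a single homozygous insertion line (TF6). The level of the transgene was not analysed here. Each array paired Al-treated plants, labelled with Cy5, with untreated plants of its own line, labelled with Cy3. Each RNA came from a pool of plants, and the methods describe the replicates as separate biological pools. In all groups the plants were 3 weeks old and grown in soil. Al-treated *AvSAMS1* TF and Al-treated Col-0 received AlCl3 at pH 4.2 and were sampled after 2 days. A supplementary legend of the paper gives pH 4.2 for the plants without Al as well. The labels give the Al dose as 300 mM, where the methods give μM. The labels put the sampling of untreated *AvSAMS1* TF and untreated Col-0 at day 0 in replicate 1 and at day 2 in replicate 2. By the labels, time thus differs between the channels in replicate 1 of both lines. The methods instead describe 2 days for plants with and without Al. The labels give whole plants as the tissue, while their labelling step names shoots.

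Al ions that enter a plant cell must be bound, moved or stored so that they do not harm it. ALS1 is a half-size ABC transporter of the vacuole membrane that is needed for storage of Al in the vacuole. ALS3 is an ABC transporter-like membrane protein without a nucleotide-binding domain, thought to move Al away from sensitive tissue, and STAR1 is a nucleotide-binding protein that works together with it. In rice, the corresponding pair forms a complex that carries UDP-glucose. NIP1;2 belongs to the aquaporin family and carries Al-malate from the root cell wall into the cell and on towards the shoot. *ALS3* is known as an Al-inducible gene that depends on the zinc finger transcription factor STOP1.

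The 4 arrays were not alike. Between 62.1 and 79.5% of the spots of a channel were well above background, with the lowest share in untreated plants of *AvSAMS1* TF replicate 1. Over the 25773 probes that every array measured well above background in both dyes, the log2 ratios of *AvSAMS1* TF replicate 1 had a Pearson's correlation of -0.28 with *AvSAMS1* TF replicate 2, 0.08 with Col-0 replicate 1 and -0.33 with Col-0 replicate 2. Those of the other 3 arrays had correlations between 0.46 and 0.83 with one another. Over 43576 probes, weakly measured ones included, *AvSAMS1* TF replicate 1 had -0.16, 0.26 and -0.17 with the same arrays in turn. The other 3 arrays had 0.28 to 0.69 with one another. *AvSAMS1* TF replicate 1 thus stood apart, most clearly from the arrays of replicate 2, and the values of the genes are given with and without it. The 4 genes exceeded background clearly in all 32 of their 32 readings (4 genes, 4 arrays and both dyes).

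*ALS3* was several fold higher in Al-treated than in untreated plants on 3 of the 4 arrays, and on *AvSAMS1* TF replicate 1 it was not. Processed signals are not scaled between arrays, so here and below they compare only the 2 channels of an array. The median signal in Al-treated plants was 165 on *AvSAMS1* TF replicate 1 and 252 on Col-0 replicate 1. On replicate 2 it was 518 for *AvSAMS1* TF and 514 for Col-0. For *ALS3* in *AvSAMS1* TF the processed signal was 789 and 9677 in Al-treated plants (replicates 1 and 2), against 637 and 1585 in untreated plants. In Col-0 it was 4804 and 8512 in Al-treated plants, against 812 and 1960 in untreated plants. The relative folds (+Al/−Al) were therefore 1.24 and 6.10 for *AvSAMS1* TF, beside 5.91 and 4.34 for Col-0. On the log2 scale these are 0.31 and 2.61 for *AvSAMS1* TF and 2.56 and 2.12 for Col-0. The ratio of *AvSAMS1* TF replicate 2 was above those of both Col-0 arrays, and that of *AvSAMS1* TF replicate 1 was below both, so the lines overlapped. Among all tested probes, 1.75, 1.72 and 2.58% had a ratio as high as that of *ALS3* on *AvSAMS1* TF replicate 2, Col-0 replicate 1 and Col-0 replicate 2, against 35.5% on *AvSAMS1* TF replicate 1.

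*ALS3* was past 2-fold in the same direction on both arrays of Col-0 and was the only one of the 4 genes to be so. In Col-0, 3.18% of the 34723 tested probes were past 2-fold upwards on both arrays, and in *AvSAMS1* TF 0.829%, with none of the 4 genes among them. The pattern of *ALS3*, past 2-fold upwards on 3 arrays but not on *AvSAMS1* TF replicate 1, was shared by 1.11% of the probes (386). The error model of the scanner software, which covers 1 array and no spread between replicates, gave *ALS3* P-values of 0.135 and 1.56e-16 in *AvSAMS1* TF and of 2.59e-16 and 6.36e-14 in Col-0.

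The mean relative fold of *ALS3* was 3.67 ± 3.44 in *AvSAMS1* TF and 5.13 ± 1.11 in Col-0 (SD, n = 2 each). On the log2 scale limma gave *ALS3* a mean ratio of 1.46 in *AvSAMS1* TF (SE 0.64, Benjamini-Hochberg adjusted p = 0.991) and of 2.34 in Col-0 (SE 0.64, adjusted p = 0.655). Neither passed an adjusted p of 0.05, and neither did any other probe: the share of probes called was 0% in each line, while 3.48% in *AvSAMS1* TF and 7.53% in Col-0 had an unadjusted p under 0.05, *ALS3* among them in Col-0 but not in *AvSAMS1* TF. Without *AvSAMS1* TF replicate 1 the log2 ratio of the TF line was that of 1 array, 2.61, with an adjusted p of 0.814 when its spread was taken to be that of Col-0. As the RNA came from whole tissue, fewer cells of a type and less RNA per cell cannot be told apart in these ratios.

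**Figure D1:**
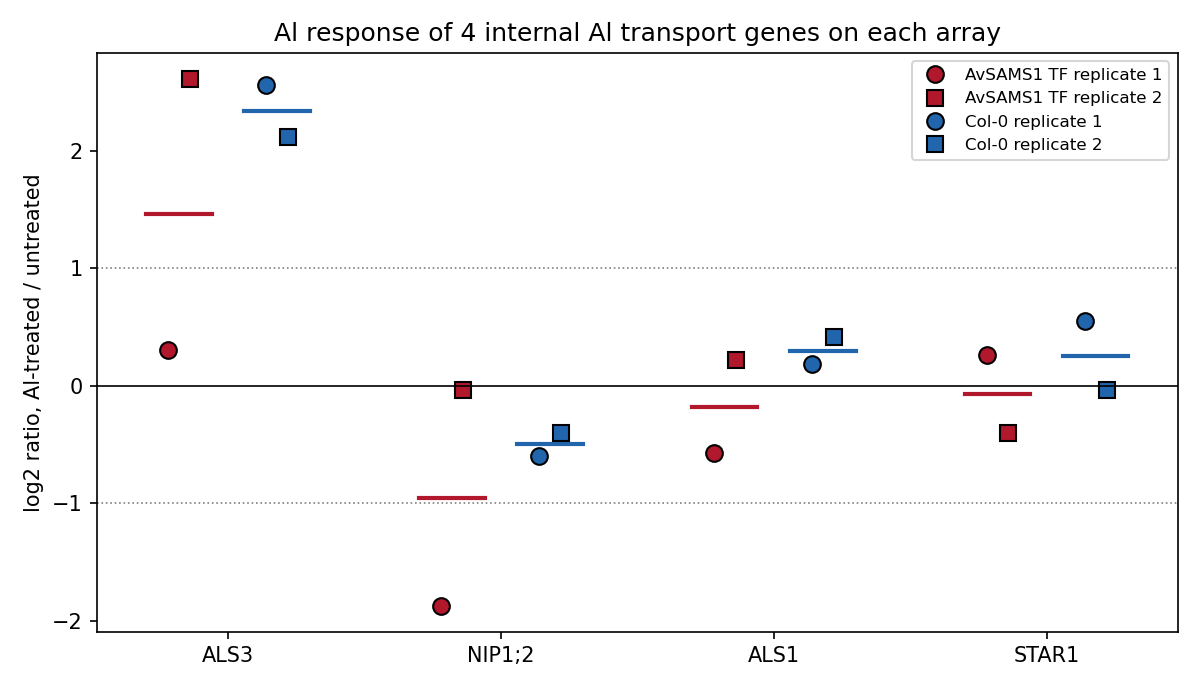
Log2 ratio of Al-treated over untreated plants for each of the 4 genes on each array, with *AvSAMS1* TF left of Col-0. Points are arrays (circles for replicate 1, squares for replicate 2), thick lines are means of 2 arrays, and dotted lines mark 2-fold. *ALS3* lies between 2.12 and 2.61 on 3 arrays and at 0.31 on *AvSAMS1* TF replicate 1, and *NIP1;2* lies below 0 on all 4.

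The levels of the single channels show on which side the *ALS3* ratio differed. On the normalized log2 scale, untreated plants were at 9.93 and 9.93 in *AvSAMS1* TF and 9.87 and 10.32 in Col-0, which is a narrow range over both lines. Al-treated plants were at 10.27 and 12.53 in *AvSAMS1* TF and 12.17 and 12.38 in Col-0. The untreated level of *AvSAMS1* TF replicate 1 was thus that of the other array of its line, and its Al-treated level was the low one. For *ALS3*, *AvSAMS1* TF minus Col-0 was -0.17 in untreated plants (SE 0.29, limma adjusted p = 0.947) and -0.87 in Al-treated plants (SE 0.78, adjusted p = 0.889). In Al-treated plants the difference was -1.90 within replicate 1 and 0.15 within replicate 2, whose arrays were on 1 slide.

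The difference in the *ALS3* response between the lines was not larger than the spread between replicates. Its log2 ratio in *AvSAMS1* TF minus that in Col-0 was -0.88 (SE 0.90, limma adjusted p = 0.999). It was -2.25 within replicate 1 and 0.49 within replicate 2, and without *AvSAMS1* TF replicate 1 it was 0.27. No probe passed the adjusted p for this difference (0%), and 0.962% had an unadjusted p under 0.05.

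**Figure D2:**
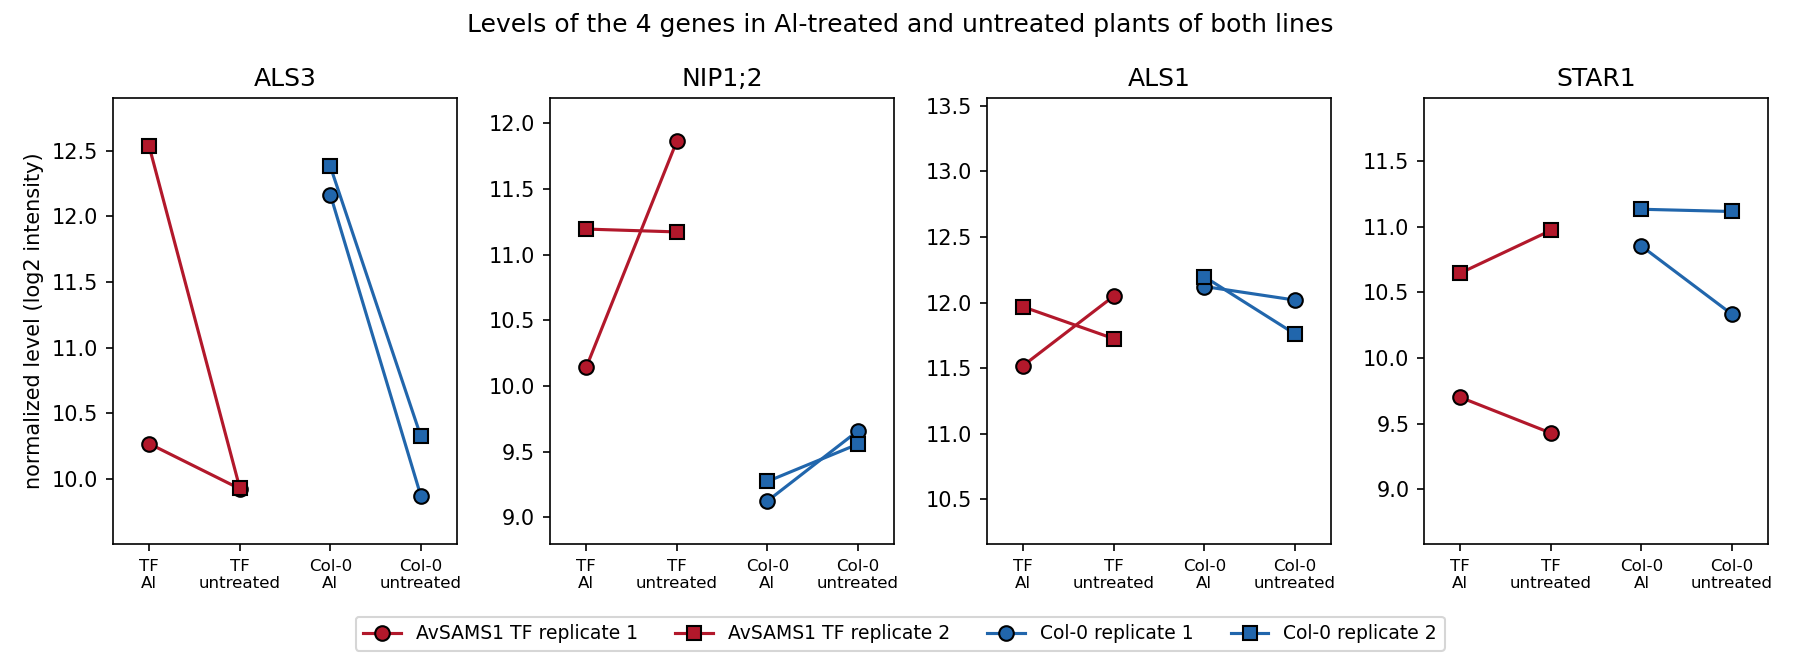
Normalized log2 level of each gene in Al-treated and untreated plants of *AvSAMS1* TF (red) and Col-0 (blue). Lines join the channels of 1 array, and all panels span the same range, while their heights are not comparable between genes. Untreated *ALS3* lies between 9.87 and 10.32 on all arrays, and for *NIP1;2* the red points lie above the blue points in both conditions.

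*NIP1;2* had a higher level in *AvSAMS1* TF than in Col-0 with and without Al, by a margin that was larger than the spread between the 2 arrays of a line but did not pass the adjusted test. In untreated plants its normalized log2 level was 11.86 and 11.17 in *AvSAMS1* TF, against 9.66 and 9.56 in Col-0. In Al-treated plants it was 10.14 and 11.20 in *AvSAMS1* TF, against 9.12 and 9.27 in Col-0. In either condition the lower *AvSAMS1* TF array was still above the higher Col-0 array. In untreated plants 16.2% of the tested probes had both *AvSAMS1* TF levels above both Col-0 levels, in Al-treated plants 17.7%, and 9.06% had this in both conditions. The share with more than a 2-fold difference within both replicates, as this gene had, was smaller, 3.12% in untreated plants and 2.44% in Al-treated plants.

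Untreated *NIP1;2* was 3.76-fold higher in *AvSAMS1* TF, with 4.61-fold within replicate 1 and 3.07-fold within replicate 2. The log2 difference was 1.91 (SE 0.34, limma adjusted p = 0.288), and 1.49% of the probes had a difference as high. In Al-treated plants the gene was 2.77-fold higher in *AvSAMS1* TF, with 2.02-fold within replicate 1 and 3.79-fold within replicate 2. The log2 difference was 1.47 (SE 0.41, limma adjusted p = 0.401). Neither difference passed an adjusted p of 0.05, which 0.207% of the probes did in untreated plants (72 probes) and 0.654% in Al-treated plants (227 probes). Both had an unadjusted p under 0.05, as 7.38% of the probes had in untreated plants and 8.67% in Al-treated plants. A fit of all 8 channels together, added after the data were seen, called 1.17% of the probes in untreated plants and 1.05% in Al-treated plants, and there the gene had adjusted p-values of 0.223 and 0.456. Without *AvSAMS1* TF replicate 1 the 2 log2 differences were 1.57 and 2.00. The within-replicate-2 values compare arrays of 1 slide. Within either replicate the labels give both lines the same sampling days. The part of slide in these differences was not tested.

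The Al response of *NIP1;2* itself was a ratio below 1 on all 4 arrays. In *AvSAMS1* TF the processed signal was 651 and 3604 in Al-treated plants, against 2379 and 3691 in untreated plants. In Col-0 it was 463 and 856 in Al-treated plants, against 701 and 1128 in untreated plants. The relative folds were 0.273 and 0.976 in *AvSAMS1* TF, beside 0.661 and 0.758 in Col-0. *AvSAMS1* TF replicate 1 was again the array that stood apart, this time downwards, and 3.74% of its probes had a ratio as low. The other 3 ratios were within 2-fold of 1.

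A negative log2 ratio on all 4 arrays was found for 11.4% of the probes. For *NIP1;2* the mean log2 ratio was -0.95 in *AvSAMS1* TF (SE 0.52, limma adjusted p = 0.991) and -0.50 in Col-0 (SE 0.52, adjusted p = 0.864), and with median centring of the arrays in place of the dye correction it was -0.51 and -0.11. The difference between the lines was -0.45 (SE 0.74, adjusted p = 0.999), with -1.27 within replicate 1 and 0.36 within replicate 2. The responses of the lines overlapped, and without *AvSAMS1* TF replicate 1 the difference was 0.46.

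*ALS1* had the smallest spread of the 4 genes over the 8 readings, with normalized log2 levels between 11.52 and 12.20. The processed signal in *AvSAMS1* TF was 1886 and 6196 in Al-treated plants, against 2810 and 5326 in untreated plants. In Col-0 it was 4349 and 6476 in Al-treated plants, against 3830 and 4865 in untreated plants. These are relative folds of 0.671 and 1.16 in *AvSAMS1* TF and 1.14 and 1.33 in Col-0, none of them past 2-fold. The ratio was above 1 on the same 3 arrays on which *ALS3* was past 2-fold, and below 1 on *AvSAMS1* TF replicate 1. For *ALS1* the error model of the scanner software gave P-values of 0.00633 and 0.287 in *AvSAMS1* TF and of 0.370 and 0.0468 in Col-0.

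The mean log2 ratio of *ALS1* was -0.18 in *AvSAMS1* TF (SE 0.32, limma adjusted p = 0.993) and 0.30 in Col-0 (SE 0.32, adjusted p = 0.870), and the difference was -0.48 (SE 0.46, adjusted p = 0.999). It was -0.76 within replicate 1 and -0.19 within replicate 2, and -0.08 without *AvSAMS1* TF replicate 1. With median centring the mean log2 ratio was 0.18 in *AvSAMS1* TF, which turned its sign, and 0.62 in Col-0. The Al-treated level of *ALS1* was 11.52 and 11.97 in *AvSAMS1* TF, against 12.12 and 12.20 in Col-0, so that the TF line was below Col-0 without overlap, as it was for 19% of the probes. That log2 difference was -0.42 (SE 0.27, limma adjusted p = 0.812). In untreated plants the lines overlapped, at 12.05 and 11.72 in *AvSAMS1* TF and 12.02 and 11.76 in Col-0.

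*STAR1*, whose product works with ALS3, did not follow the pattern of *ALS3* on the arrays. In *AvSAMS1* TF its processed signal was 498 and 2751 in Al-treated plants, against 417 and 3637 in untreated plants. In Col-0 it was 1709 and 3639 in Al-treated plants, against 1163 and 3739 in untreated plants. The relative folds were 1.20 and 0.756 in *AvSAMS1* TF and 1.47 and 0.973 in Col-0. In both lines the ratio was above 1 on replicate 1 and below 1 on replicate 2, and on no array was it past 2-fold.

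The mean log2 ratio of *STAR1* was -0.07 in *AvSAMS1* TF (SE 0.33, limma adjusted p = 0.996) and 0.26 in Col-0 (SE 0.33, adjusted p = 0.901). The difference was -0.33 (SE 0.47, adjusted p = 0.999), with -0.30 within replicate 1 and -0.36 within replicate 2, and -0.66 without *AvSAMS1* TF replicate 1. With median centring the mean log2 ratio was 0.33 in *AvSAMS1* TF, again with the sign turned, and 0.62 in Col-0. The Al-treated log2 level of *STAR1* was 9.70 and 10.65 in *AvSAMS1* TF, against 10.85 and 11.13 in Col-0. Here, too, the TF line was below Col-0 without overlap, as it was for 19% of the probes. The log2 difference was -0.82 (SE 0.39, limma adjusted p = 0.702). In untreated plants the level was 9.43 and 10.97 in *AvSAMS1* TF and 10.33 and 11.12 in Col-0, which overlapped, and the difference was -0.52 (SE 0.64, adjusted p = 0.909).

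Over the 8 channel levels, *ALS3* and *STAR1* had a Pearson's correlation of 0.46, *ALS3* and *ALS1* 0.54, and *ALS1* and *STAR1* 0.22. *NIP1;2* was negatively correlated with each of the others, at -0.51 with *STAR1*, -0.31 with *ALS3* and -0.20 with *ALS1*. These are descriptions over 8 readings that share arrays, pools and slides.

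The genes whose 8 levels were most like those of each of the 4 were taken from 16693 genes well above background throughout. For *ALS3* they included the telomere repeat-binding gene *TRB2* (r = 0.983) and At4g31140 (0.982). At4g31140 had log2 ratios of 1.04 and 2.103 in *AvSAMS1* TF and 2.28 and 2.07 in Col-0, while *TRB2* stayed between -0.10 and 0.51. For *NIP1;2* they were At1g51860 (0.974), At3g60961 (0.973) and *TOPP3* (0.972), which encodes a type one protein phosphatase. Untreated At1g51860 was at 11.83 and 10.89 in *AvSAMS1* TF, against 8.22 and 8.22 in Col-0, so it too was the higher one in the TF line. For *ALS1* they were *LAP1* (0.971), At2g03510 (0.971) and *PEX19-1* (0.969), and for *STAR1* At3g24080 (0.992), At4g24100 (0.984) and At1g14240 (0.984). With only 8 readings many genes reach such values: r was at least 0.9 for 152 genes with *ALS3*, 111 with *NIP1;2*, 62 with *ALS1* and 177 with *STAR1*.

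*ALS3* was next set beside 15 genes of a list made for Al resistance. Among them were *STOP1*, its target *ALMT1*, which encodes the malate channel, and *MATE*, which encodes a citrate transporter. The list also holds regulators and genes of other roles, such as *HAK5* (potassium transporter) and *GDH2* (glutamate dehydrogenase). Past 2-fold upwards on both arrays of a line were 1 of the 15 in *AvSAMS1* TF (*ALMT1*) and 6 in Col-0 (*ALMT1*, *HAK5*, *PGIP1*, *MATE*, *STOP2* and *GDH2*), and none was past 2-fold downwards on both. For *ALMT1* and *STOP2* the untreated channel was well above background on only 1 of 2 arrays in each line, so their ratios are not measured on both sides on every array. Among 21194 genes, 201 were past it upwards in *AvSAMS1* TF and 780 in Col-0. The list was chosen with earlier results of these data known, so these counts describe it and do not test it. The median log2 ratio of the 15 genes was -0.28 and 1.49 in *AvSAMS1* TF, beside 0.97 and 1.41 in Col-0, where that of all genes was between -0.02 and 0.05. None of the 15 passed limma, with adjusted p-values of at least 0.991 in *AvSAMS1* TF and at least 0.655 in Col-0.

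Of the 6 list genes past 2-fold in Col-0, *MATE*, *HAK5*, *PGIP1* and *GDH2* varied over the arrays much as *ALS3* did. *MATE* had log2 ratios of -0.13 and 2.31 in *AvSAMS1* TF and 3.54 and 2.40 in Col-0. *HAK5*, which encodes a potassium transporter, had -0.15 and 8.01 in *AvSAMS1* TF and 8.05 and 5.91 in Col-0. For *PGIP1*, a polygalacturonase inhibitor gene, the values were -1.11 and 3.098 in *AvSAMS1* TF and 2.40 and 3.82 in Col-0. On *AvSAMS1* TF replicate 1 these 3 genes were below 0, beside 0.31 for *ALS3*. *GDH2*, for glutamate dehydrogenase, was at -1.23 on that array and between 1.55 and 2.73 on the others. Not all genes of the list had this pattern. *WRKY46* had -1.55 and 0.01 in *AvSAMS1* TF and 0.01 and 1.46 in Col-0. *XTH31* had 3.05 and -0.52 in *AvSAMS1* TF, with untreated plants well above background on 1 of 2 arrays, and 0.67 and -1.73 in Col-0. *MGT1* stayed between -0.26 and 0.51.

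*ALMT1* was well above background in Al-treated plants on all 4 arrays, *AvSAMS1* TF replicate 1 included. Its normalized log2 level was 8.12 and 11.28 in Al-treated *AvSAMS1* TF, against 6.31 and 6.62 in untreated *AvSAMS1* TF. The level was 10.82 and 12.05 in Al-treated Col-0, against 6.77 and 7.18 in untreated Col-0. *STOP2*, a relative of *STOP1*, was at 6.37 and 8.92 in Al-treated *AvSAMS1* TF, where it was well above background on 1 of 2 arrays, against 6.26 and 7.33 in untreated *AvSAMS1* TF. Its level was 7.46 and 9.05 in Al-treated Col-0, against 6.68 and 7.84 in untreated Col-0. On this scale the Col-0 replicate 1 levels of *STOP2* were less than 2-fold apart, so that its place among the 6 genes depends on the scale used. *STOP1* stayed within 2-fold, at -0.65 and 0.10 in *AvSAMS1* TF and 0.05 and 0.27 in Col-0.

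**Figure D3:**
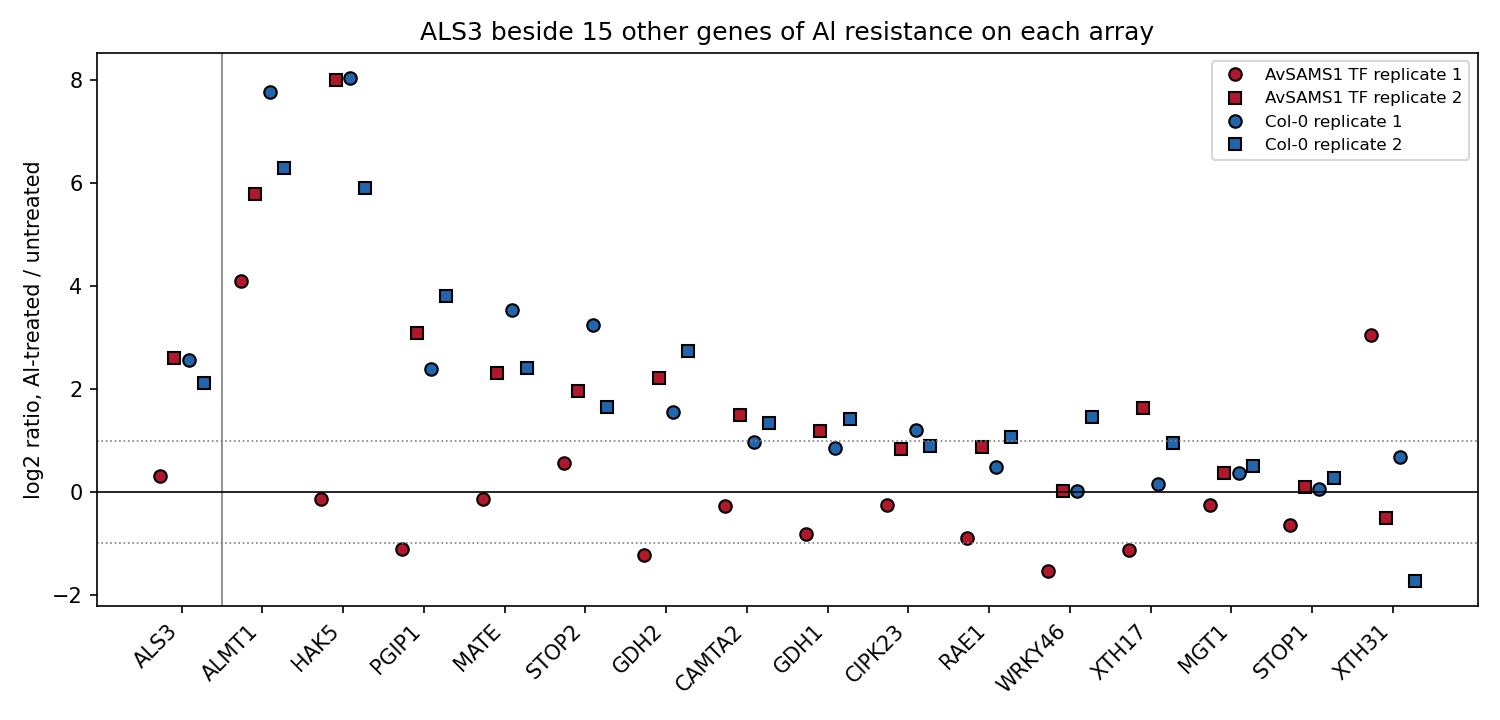
Log2 ratio of Al-treated over untreated plants on each array for *ALS3* (left of the line) and the 15 genes of the list made for Al resistance, ordered by their mean in Col-0. Red points are *AvSAMS1* TF and blue points Col-0 (circles for replicate 1, squares for replicate 2), and dotted lines mark 2-fold. *ALS3*, *HAK5*, *PGIP1*, *MATE* and *GDH2* have *AvSAMS1* TF replicate 1 below 2-fold and the other 3 arrays above it. *ALMT1* and *STOP2* had an untreated channel well above background on only 1 of 2 arrays in each line.

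Relatives of the transporters were looked at in the same way. Of 9 relatives of ALS1 and STAR1 (half-size ABCB transporters and cytosolic ABCI proteins), 8 were tested, and none was past 2-fold on any array. Their median log2 ratio was -0.11 and 0.10 in *AvSAMS1* TF, beside -0.32 and -0.14 in Col-0. Of 8 other *NIP* genes, 7 were tested, and 1 was past 2-fold in the same direction, downwards, on both arrays of a line. Among 21194 genes, 308 were past it downwards in *AvSAMS1* TF and 517 in Col-0. The *NIP* gene was *NIP3;1* in *AvSAMS1* TF. Its normalized log2 level was 6.80 and 6.27 in Al-treated plants, where it was well above background on 1 of 2 arrays, against 8.42 and 7.57 in untreated plants. Al-treated Col-0 had it not well above background on either array, and untreated Col-0 had it well above background on 1 of 2. Its level was 6.58 and 6.15 in Al-treated Col-0, against 6.56 and 7.36 in untreated Col-0. A fall in Col-0 was therefore not measured on both arrays. *NIP1;1*, the closest gene of the family by name, was well above background in untreated *AvSAMS1* TF on 1 of 2 arrays and in Al-treated *AvSAMS1* TF on none. No level of it is therefore set against that of *NIP1;2*.

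A further 7 genes are tied to *ALS3* by genetics: the DNA damage checkpoint genes *ATR*, *ALT2*, *SUV2* and *SOG1*, whose loss relieves the Al sensitivity of the *als3* mutant, and *LPR1*, *LPR2* and *PDR2* of the root response to low phosphate. All 7 were tested, and none was past 2-fold on both arrays of a line. Their median log2 ratio was -0.35 and 0.03 in *AvSAMS1* TF, beside 0.21 and 0.15 in Col-0.

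The levels of root and leaf markers also differed between the arrays. Of 18 root markers, 8 and 14 were well above background in Al-treated *AvSAMS1* TF, against 11 and 17 in untreated *AvSAMS1* TF. In Col-0 9 and 14 were so in Al-treated plants, against 8 and 18 in untreated plants. Their mean log2 level was 7.43 and 7.62 in Al-treated *AvSAMS1* TF, against 7.68 and 8.53 in untreated *AvSAMS1* TF, and 7.88 and 8.03 in Al-treated Col-0, against 7.39 and 9.43 in untreated Col-0. The summed signal of the list ranged from 22795 to 83505 in Al-treated *AvSAMS1* TF, from 11145 to 87581 in untreated *AvSAMS1* TF, from 80116 to 96643 in Al-treated Col-0 and from 17041 to 117730 in untreated Col-0. These sums are not scaled between arrays.

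The root markers' median log2 ratio was -0.60 and -1.28 in *AvSAMS1* TF, beside 0.42 and -2.45 in Col-0. In untreated plants the mean root marker level was higher in *AvSAMS1* TF than in Col-0 in replicate 1 and lower in replicate 2. All 18 leaf markers were well above background in every channel. Their mean log2 level was 15.56 and 16.70 in untreated *AvSAMS1* TF, against 17.34 and 16.89 in untreated Col-0. In Al-treated plants it was 16.54 and 16.83 in *AvSAMS1* TF, against 15.75 and 16.50 in Col-0. The TF line was thus lower in untreated and higher in Al-treated plants within both replicates. The leaf markers' median log2 ratio was 0.96 and 0.07 in *AvSAMS1* TF, beside -1.27 and -0.35 in Col-0. The part of these markers in the values of *ALS3* and *NIP1;2* was not tested.

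The genes next to each of the 4 along the chromosome were looked at after the values of *NIP1;2* had been seen, with up to 5 on each side. In untreated plants, 2 of 8 measured neighbours of *NIP1;2* were more than 2-fold higher in *AvSAMS1* TF within both replicates, a share that was 3.12% over all tested probes. At4g18930, 2 genes on, was at 14.24 and 14.02 on the log2 scale in *AvSAMS1* TF, against 11.75 and 12.63 in Col-0, which is 3.84-fold (limma adjusted p = 0.361). In Al-treated plants it was higher in *AvSAMS1* TF by 1.13 and 2.09 on the log2 scale. At4g18940, the gene after it, was at 10.996 and 9.62 in untreated *AvSAMS1* TF and not well above background in Col-0 in either channel, which makes it at least 15.8-fold higher in untreated plants (limma adjusted p = 0.130) and at least 2.09-fold higher in Al-treated plants. These bounds take the Col-0 level per array as the higher of the probe's own signal and the lowest signal among probes well above background. The other 6 neighbours were within 2-fold in untreated plants. Neighbours past 2-fold in this way numbered also 2 of 7 around *ALS1*, 1 of 9 around *STAR1* and 0 of 10 around *ALS3*.

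**Figure D4:**
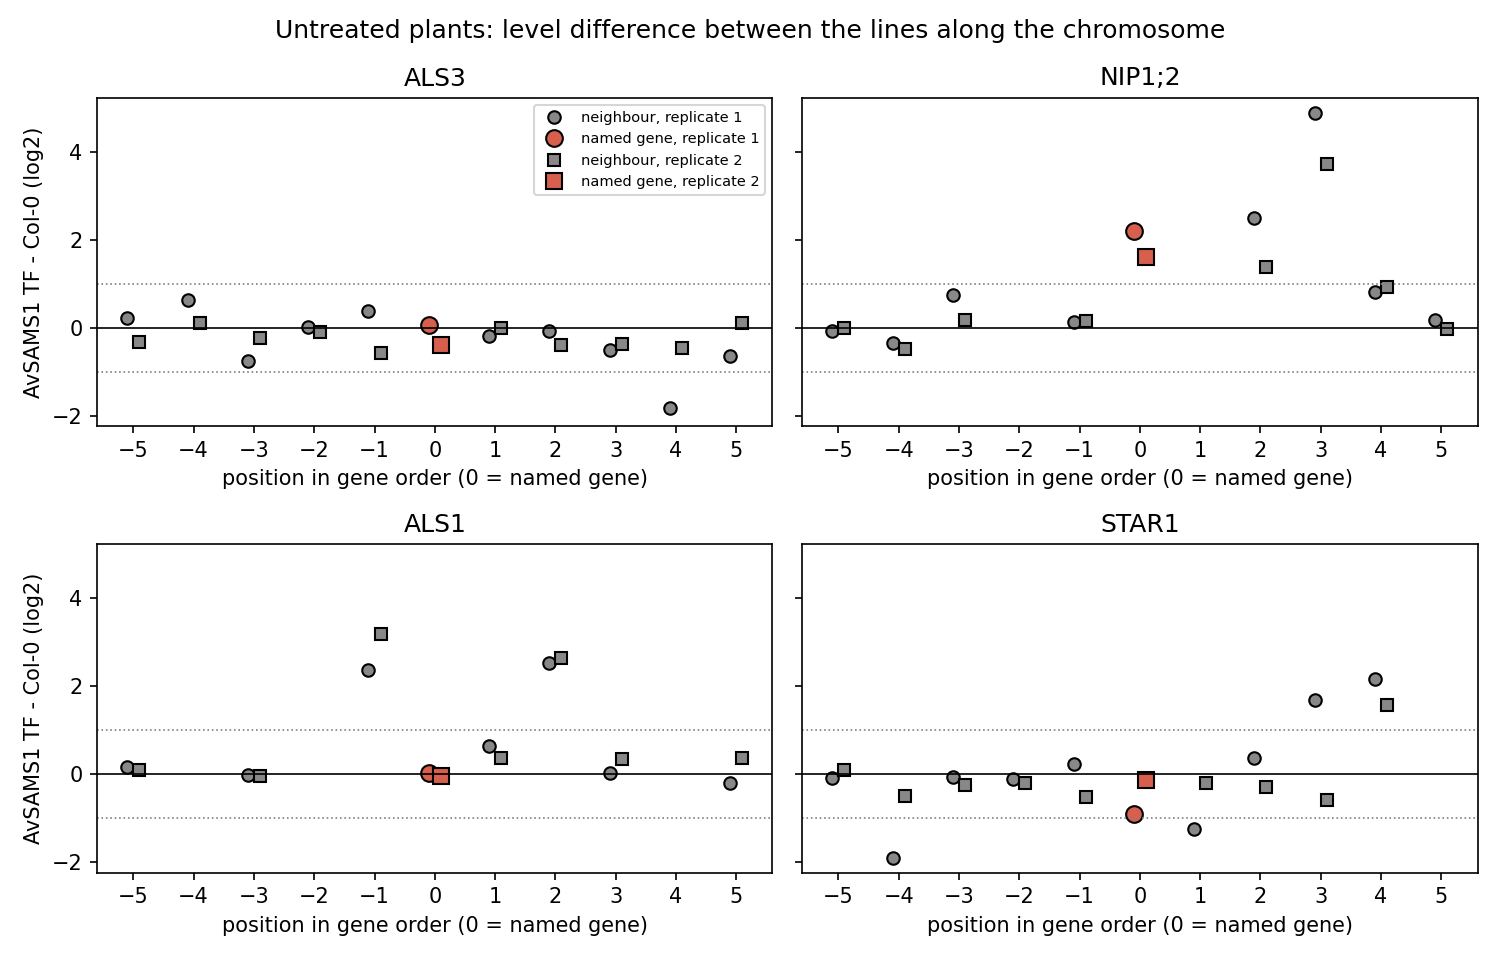
Level of each measured gene in untreated *AvSAMS1* TF minus untreated Col-0 (log2), by position in gene order around each of the 4 genes, which stand at 0 (circles for replicate 1, squares for replicate 2, dotted lines at 2-fold). More than 2-fold higher in *AvSAMS1* TF in both replicates are 2 of 8 neighbours of *NIP1;2*, 2 of 7 of *ALS1*, 1 of 9 of *STAR1* and 0 of 10 of *ALS3*.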

How the data were processed

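Spot values of 4 two-colour Agilent arrays were used. The deposited scanner files hold log10 ratios of Cy5 over Cy3, which the authors made with Feature Extraction (headers 11.0.1.1 for replicate 1 of both lines and 10.7.1.1 for replicate 2, labels 10.7.3.1). They also hold, as deposited, the p-value of each ratio, processed intensity values corrected for background and dye, and raw median intensity values. The deposited series table holds log2 ratios made by the authors with GeneSpring, equal to the scanner ratio at the 4 genes. Dyes were not exchanged, so dye bias of a probe can remain in a ratio within a line.

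The ratios were put on the log2 scale. Control spots and 10 to 23 spots per array with an outlier mark were removed, and a probe's spots were averaged. Of 43603 probes, 34447 were paired with 1 locus through the probe annotation and the TAIR10.1 gene table, used for names only. For testing, a probe had to be well above background on 2 or more arrays in at least 1 of the channels, which 34723 were. They were tested with limma 3.58.1 in R 4.3.3 (lmFit, eBayes, 1 coefficient per line, 2 residual degrees of freedom, Benjamini-Hochberg adjustment). Channel levels came from median signals after normexp (offset 50), loess and Aquantile. A gene with several probes was represented by the one of highest mean signal. The number of arrays limits the precision. Simulated data with known changes were used to check the fits.

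The 4 genes and all lists were chosen with earlier results of these data known. Named besides were list genes past 2-fold in 1 direction on both arrays of a line, and the 3 genes most correlated with each of the 4 over 8 levels, of which 1 is not reported here. Other named genes were chosen after their values were seen. Replicate numbers are those of the sample titles, which do not say what same-numbered arrays of the lines share. Same-numbered arrays deviated together (r = 0.43 over 25773 probes). Alternatives were normexp ratios with loess or median centring, the series table, no filter or a strict filter, the replicate block, an eBayes trend, each line alone, a t-test, other channel scalings and leaving out each array, and, after the data were seen, values within the slide of replicate 2 and a separate-channel fit. No sequence is printed.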

Additional observations from a re-analysis of the deposited data

How the results depend on the processing

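None of the 232 values of the 4 genes under the alternatives had an adjusted p under 0.05 where one was tested. *NIP1;2* was higher in *AvSAMS1* TF throughout, with a log2 difference of 1.57 to 2.26 in untreated plants (adjusted p 0.0702 to 1.00) and 0.94 to 2.00 in Al-treated plants (0.193 to 0.852), and *ALS3* in Col-0 lay between 2.12 and 2.56 (0.362 to 1). Leaving out 1 array gave *ALS3* in *AvSAMS1* TF a log2 ratio of 0.31 to 2.61. It turned the sign of *ALS1* (-0.58 to 0.22) and *STAR1* (-0.40 to 0.26) in *AvSAMS1* TF and of *STAR1* in Col-0 (-0.039 to 0.55), and, for the difference in response, of *ALS3* (-2.03 to 0.27), *NIP1;2* (-1.37 to 0.46) and *STAR1* (-0.66 to 0.00076). The same held for *AvSAMS1* TF against Col-0 in untreated plants for *ALS1* (-0.16 to 0.16), *ALS3* (-0.39 to 0.059) and *STAR1* (-1.30 to 0.25), and in Al-treated plants for *ALS3* (-2.01 to 0.26). Within the slide of replicate 2, the difference in response was 0.49 for *ALS3* and 0.36 for *NIP1;2*, and Al-treated *ALS3* differed by 0.15. With median centring the *AvSAMS1* TF ratios of *ALS1* and *STAR1* were 0.18 and 0.33. The untreated difference of *ALS1* was 0.0607 with the processed signal at the 75th percentile and 0.0188 with quantile normalization.

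Probes called in untreated plants numbered 0 with the processed signal at the 75th percentile, 0 with the strict filter, 401 with the replicate block, 406 in the separate-channel fit and 0 to 0 when 1 array was left out, against 72. In Al-treated plants they numbered 0 with the strict filter, 366 in the separate-channel fit and 0 to 0 with an array left out, against 227. The t-test called 1 probe in Col-0, against 0 in limma, and 0 in *AvSAMS1* TF and in the difference. The replicate block changed no call of the 4 genes, and it gave untreated *NIP1;2* the lowest limma adjusted p of the settings, 0.0702. Unadjusted p-values under 0.05 ranged over the settings from 660 to 5855 probes in *AvSAMS1* TF, 642 to 4738 in Col-0 and 160 to 5951 in the difference. Averaging probes gave no other value, since each gene has 1, and slide as a random block could not be estimated. The causes were not tested.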

Other observations

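Of the genes next to *ALS1* along the chromosome (up to 5 on each side, looked at after values had been seen), 2 of the 7 measured were more than 2-fold higher in untreated *AvSAMS1* TF than in untreated Col-0 within both replicates, while *ALS1* itself differed by -0.0026 on the log2 scale. Untreated At5g39030 was higher in *AvSAMS1* TF by 2.37 within replicate 1 and by 3.19 within replicate 2 on the log2 scale (6.87-fold, limma adjusted p = 0.162). Untreated At5g39080 was at 11.55 and 12.61 in *AvSAMS1* TF, against 9.03 and 9.96 in Col-0 (5.99-fold, limma adjusted p = 0.372). Both were also higher in Al-treated *AvSAMS1* TF within both replicates. The neighbour of *STAR1* past 2-fold in this way was At1g67980. In Al-treated plants its log2 difference (*AvSAMS1* TF minus Col-0) was -0.82 within replicate 1 and 1.45 within replicate 2. At5g39030, At5g39080 and At1g67980 did not pass an adjusted p of 0.05 in untreated plants.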
